A study of Triticum aestivum with 24 samples.

Results

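Of the 105200 genes measured in the leaves of bread wheat, 11 had a higher mean level in each of the 4 groups grown in elevated CO2 than in any of the 4 groups grown without it, by the margin set here. The members were chosen on the measured values themselves. A gene was kept when the lowest of its 4 CO2 group means exceeded the highest of its 4 other group means by at least 0.6 on the log2(FPKM + 1) scale, and when its highest group mean was at least 2 on that scale. FPKM is the number of sequenced fragments scaled to transcript length and to library size, and each library was first rescaled to a common median. Because the rule used every CO2 difference, those differences are given below as a description and are not tested. The rule set no order among the 4 CO2 groups or among the 4 others, so the effects of temperature and drought within each side were tested.

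The plants were the bread wheat cultivar Alana (Triticum aestivum), sampled at growth stage 61, when flowering begins. RNA came from leaf 3 and leaf 4 of the main tiller, was enriched for poly-A RNA and was sequenced on an Illumina instrument. The 8 groups crossed 3 treatments, each present or absent: CO2 raised to 700 ppm, warmth that reached 31 °C (called temperature here) and drought, with soil water held at 25 ± 5%. The 4 groups with elevated CO2 were CO2 alone, CO2+drought, CO2+temperature and CO2+temperature+drought, and the 4 without it were control, drought, temperature and temperature+drought. Each group had 3 libraries that the labels call biological replicates. The sources used here give neither the number of plants behind a library nor the CO2 level of the groups without elevation.

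Wheat fixes carbon by the C3 pathway, in which Rubisco takes up CO2 directly and also reacts with oxygen, a side reaction that starts photorespiration. Raised CO2 favours carbon fixation over photorespiration, narrows stomata and tends to raise the sugar content of leaves. Sugar status in turn is known to alter the transcription of many leaf genes. Bread wheat is hexaploid, with A, B and D subgenomes that mostly carry near-identical copies of each gene, called homoeologs. The files give identifiers alone, and 0 of these 105200 were found in the gene table of the IWGSC CS RefSeq v2.1 assembly. The 11 genes are therefore given by identifier with no function, and the leaf origin could not be checked against marker genes. The first letters and digits of an identifier name the chromosome, so that TraesCS7A02G299400 lies on chromosome 7A.

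The libraries were of comparable content, with 61757 to 64248 genes above 0 FPKM in each. Absolute depth is unknown, because FPKM hold no counts. Steps between low values put the value of 1 fragment at 0.885 to 1.15 times that of control replicate 1. The 3 CO2+drought and 3 temperature+drought columns were written to 9 decimals and had medians of 5.97 to 6.43 FPKM over the 32436 genes that reached 1 FPKM in all 24 libraries, against 7.05 to 7.45 FPKM in the other 18 columns. Every value below was rescaled for this. Rescaling acts on a whole column, so a difference in processing that acted on single genes cannot be told apart from the effects of these 2 groups, and whether there was one was not tested. It would bear on drought added to CO2, temperature added to CO2+drought, drought added to temperature, temperature added to drought and the interactions. Such a difference would also bear on the choice of members, and on the CO2 differences with drought and with temperature and drought together. Temperature+drought was the highest group without CO2 in 6 of the 11 members. The contrasts among the other 6 groups would not be affected. The spread between replicates over the genes tested was smallest under CO2 alone, with a root mean square SD of 0.138 in log2 units (n = 3), and widest with all 3 treatments, at 0.303 (n = 3). No source used here says how fragments were divided among homoeologs, which makes the level of any single copy uncertain. In RNA from whole leaves, fewer cells of a type and less RNA per cell cannot be told apart.

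The rule left few genes. Group means of all 4 CO2 groups lay above those of all 4 others in 1450 genes, of which 780 had a highest group mean of at least 2. Of these, 11 also met the margin of 0.6. The same rule kept 42 genes lower in every CO2 group, 24 higher and 19 lower in every temperature group, and 44 higher and 0 lower in every drought group. All 11 members passed the filter on low values (at least 1 FPKM in at least 3 libraries), which 45384 genes passed. At the margin, TraesCS1D02G165000 and TraesCS7A02G245800 lay just inside at 0.60 and 0.61, and TraesCS7D02G244300 and TraesCS6D02G100200 just outside at 0.59 each. A further 11 genes, these 2 included, lay between 0.5 and 0.6. In 8 of the 11 members, all 12 CO2 libraries stood above all 12 other libraries, as they did in 0.154% of the genes tested. The exceptions were TraesCS1B02G386400, TraesCS3A02G255300 and TraesCS5D02G039100, each with at least 1 library on the wrong side. None of the 11 was listed at 0 FPKM in any library.

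**Figure D1:**
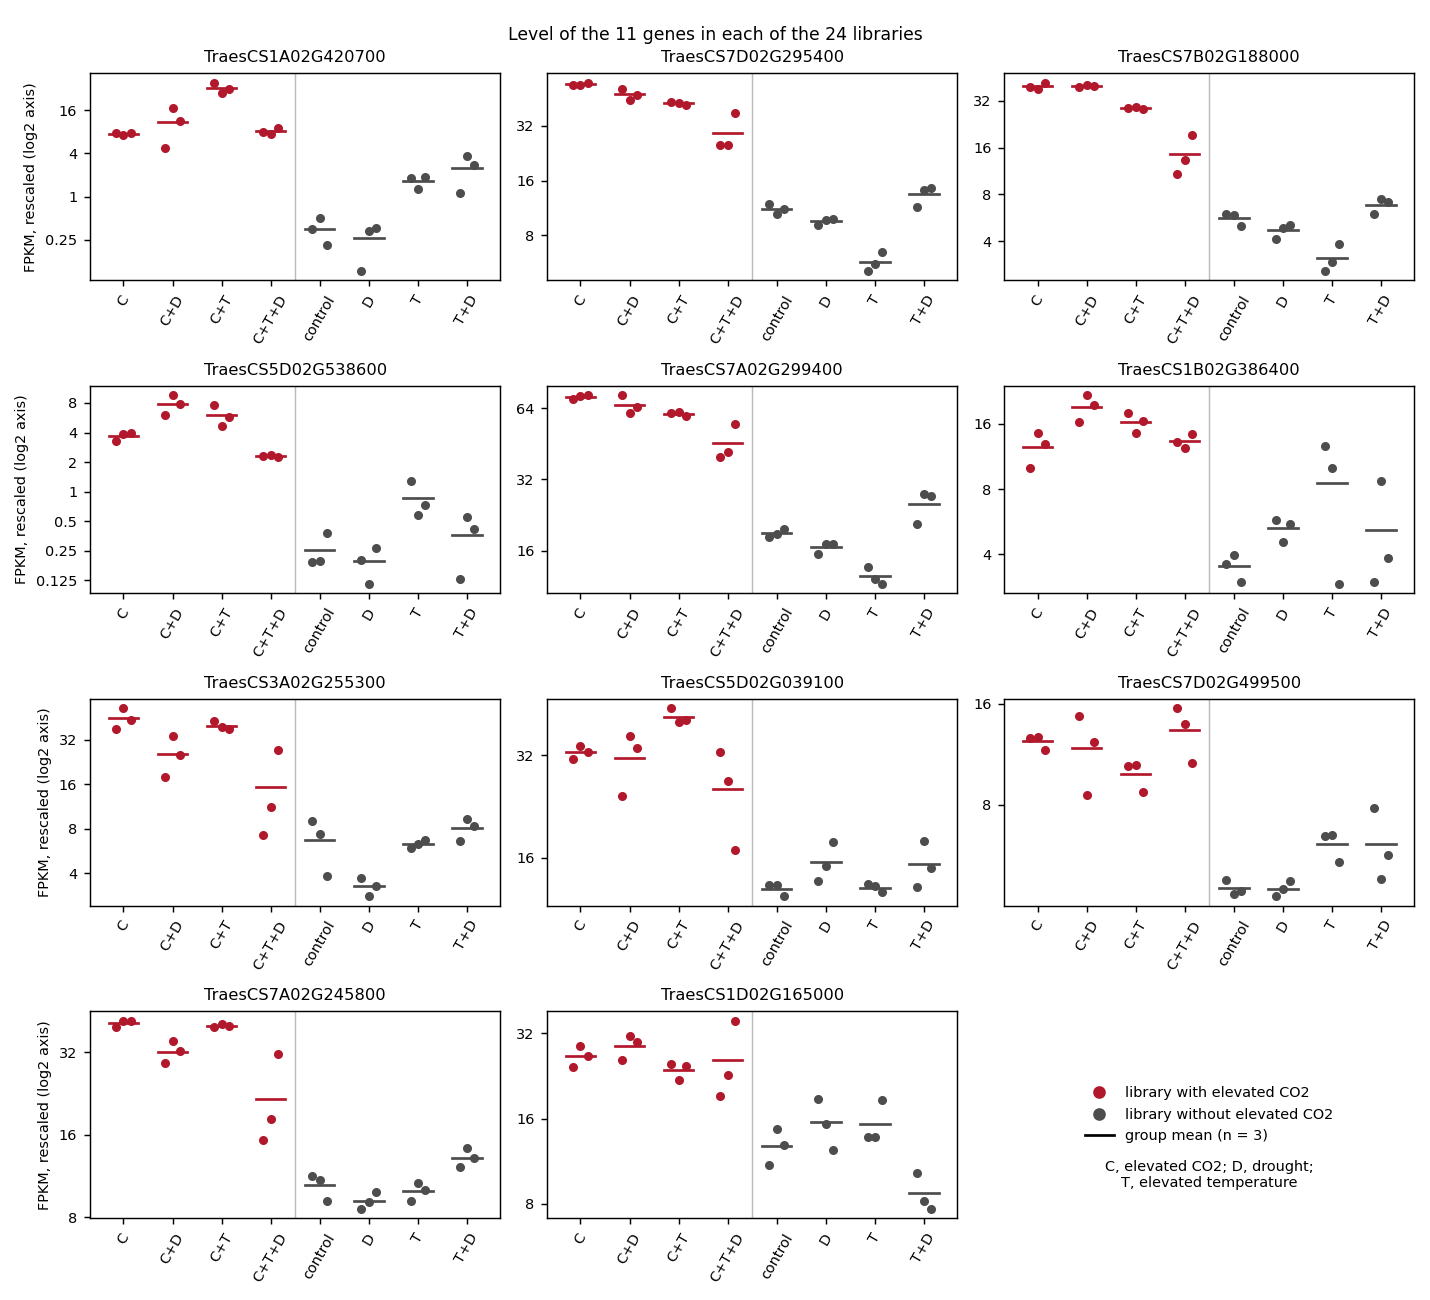
Rescaled FPKM of each of the 11 genes in every library, on a log2 axis that differs between panels. Red points are the 12 libraries with elevated CO2, grey points the 12 without, and bars are group means (n = 3). C is elevated CO2, D drought and T elevated temperature. The red points lie above all grey points in 8 of the 11 panels.

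TraesCS1A02G420700, on chromosome 1A, had the widest margin (1.35 on the log2 scale). It stood at 7.61, 7.34 and 7.66 FPKM in the 3 CO2 libraries, against 0.356, 0.510 and 0.209 FPKM in the controls. CO2+drought libraries held 4.78, 17.4 and 11.2 FPKM, against 0.0918, 0.334 and 0.365 FPKM in drought libraries. Every library without temperature and without CO2 was thus below 1 FPKM, and every CO2 library above it. In CO2+temperature libraries it stood at 38.9, 28.1 and 32.2 FPKM, against 1.85, 1.26 and 1.89 FPKM in temperature libraries, and in CO2+temperature+drought libraries at 8.10, 7.55 and 8.93 FPKM, against 1.12, 3.71 and 2.75 FPKM in temperature+drought libraries. The ratio of group means was 21.0 without another treatment, 42.3 under drought, 19.8 under temperature and 3.24 under temperature and drought together. The first and second of these ratios rest on levels under 1 FPKM in the groups without CO2.

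TraesCS5D02G538600, on chromosome 5D, was the member with the lowest level and was likewise below 1 FPKM in most libraries without CO2. The CO2 libraries held 3.29, 3.88 and 3.96 FPKM, against 0.191, 0.197 and 0.374 FPKM in the controls. Under drought the values were 6.05, 9.58 and 7.88 FPKM with CO2, against 0.203, 0.115 and 0.265 FPKM without. No CO2 library overlapped with a library lacking CO2. Under temperature they were 7.55, 4.63 and 5.78 FPKM with CO2, against 1.29, 0.581 and 0.727 FPKM without, and under temperature and drought 2.31, 2.36 and 2.24 FPKM with CO2, against 0.129, 0.546 and 0.415 FPKM without. Its highest library without CO2, temperature replicate 1, reached 1.29 FPKM, below its lowest CO2 library at 2.24 FPKM.

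A set of 3 members, 1 on each of chromosomes 7A, 7B and 7D, had similar orders of group means. These were set apart after their values were seen, and the files do not say whether they are homoeologs. TraesCS7A02G299400 was the most abundant of the 11, at 70.3, 72.5 and 72.5 FPKM in CO2 libraries, against 18.3, 18.9 and 19.8 FPKM in controls. It stood at 72.7, 61.2 and 64.6 FPKM in CO2+drought libraries, against 15.5, 17.1 and 17.0 FPKM in drought libraries. CO2 libraries were thus at about the same level with and without drought. Values were 60.9, 61.7 and 59.3 FPKM in CO2+temperature libraries, against 13.6, 12.1 and 11.6 FPKM in temperature libraries. With all 3 treatments it reached 40.0, 41.9 and 55.1 FPKM, against 20.8, 27.7 and 27.1 FPKM under temperature+drought. The smallest distance was therefore in the last pair, where the ratio of means was 1.81, against 3.78 to 4.88 in the other 3 pairs.

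TraesCS7D02G295400 had the second widest margin (1.05), with 53.8, 53.6 and 55.4 FPKM in CO2 libraries, against 11.9, 10.5 and 11.2 FPKM in controls. CO2+drought libraries had 51.1, 44.6 and 47.5 FPKM, against 9.12, 9.71 and 9.90 FPKM in drought libraries. The lowest CO2 library of the gene, at 25.2 FPKM, stood well above its highest other library, at 14.6 FPKM. CO2+temperature libraries had 43.4, 42.8 and 41.8 FPKM, against 5.10, 5.57 and 6.44 FPKM in temperature libraries. CO2+temperature+drought libraries had 25.2, 25.3 and 37.8 FPKM, against 11.5, 14.3 and 14.6 FPKM in temperature+drought libraries.

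TraesCS7B02G188000 was the least abundant of the set, at 38.9, 37.8 and 41.8 FPKM in CO2 libraries, against 6.03, 5.90 and 5.05 FPKM in controls, and at 39.4, 40.2 and 39.5 FPKM in CO2+drought libraries, against 4.13, 4.90 and 5.08 FPKM in drought libraries. It stood at 28.6, 29.2 and 28.3 FPKM in CO2+temperature libraries, against 2.58, 2.94 and 3.82 FPKM in temperature libraries, and at 10.8, 13.2 and 19.4 FPKM in CO2+temperature+drought libraries, against 5.97, 7.46 and 7.16 FPKM in temperature+drought libraries. In all 24 libraries the gene on 7A was highest and the gene on 7B lowest.

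Without CO2, the means of all 3 genes on 7A, 7B and 7D ran from temperature+drought, the highest, through control and drought to temperature, the lowest, an order held by 4.16% of the genes tested and by no other member. With CO2, the genes on 7A and 7D also shared the order CO2, CO2+drought, CO2+temperature and CO2+temperature+drought. The gene on 7B differed from it by the exchange of the first and second groups, which stood at 39.5 ± 2.03 and 39.7 ± 0.422 FPKM (SD, n = 3 each). The full order of 8 groups seen for 7A and 7D was held by 4 of the genes tested, both of these included. The rule itself set all CO2 groups above all others, which held in 1450 genes, so that part of the order was fixed. Shares of the summed FPKM of the 3 genes do not depend on how libraries are scaled. The 7B gene averaged 21.9% ± 4.01 of the sum in the 12 CO2 libraries (SD, n = 12) and 15.2% ± 1.44 in the other 12 (SD, n = 12). By group its share was 23.9% under CO2, 25.9% under CO2+drought, 21.7% under CO2+temperature and 16.0% under CO2+temperature+drought, and 14.6% to 15.8% in the 4 groups without CO2. The 7A gene had the opposite pattern, with 45.9% ± 3.61 in CO2 libraries and 55.1% ± 3.39 in the others (SD, n = 12 each). By group its share was 51.3% under CO2+temperature+drought, 43.0% to 45.9% in the other CO2 groups and 53.0% to 58.6% in the groups without CO2. The share of the 7D gene was 32.2% ± 0.910 in CO2 libraries and 29.7% ± 2.32 in the others (SD, n = 12 each), with its lowest library, at 23.9%, under temperature alone. This gap was not shared by all backgrounds. By group the 7D share was 31.1% with CO2+drought and with drought, and 32.8% under CO2 against 31.2% in controls. It was 32.3% under CO2+temperature against 26.8% under temperature, and 32.7% with all 3 treatments against 29.6% under temperature+drought.

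**Figure D2:**
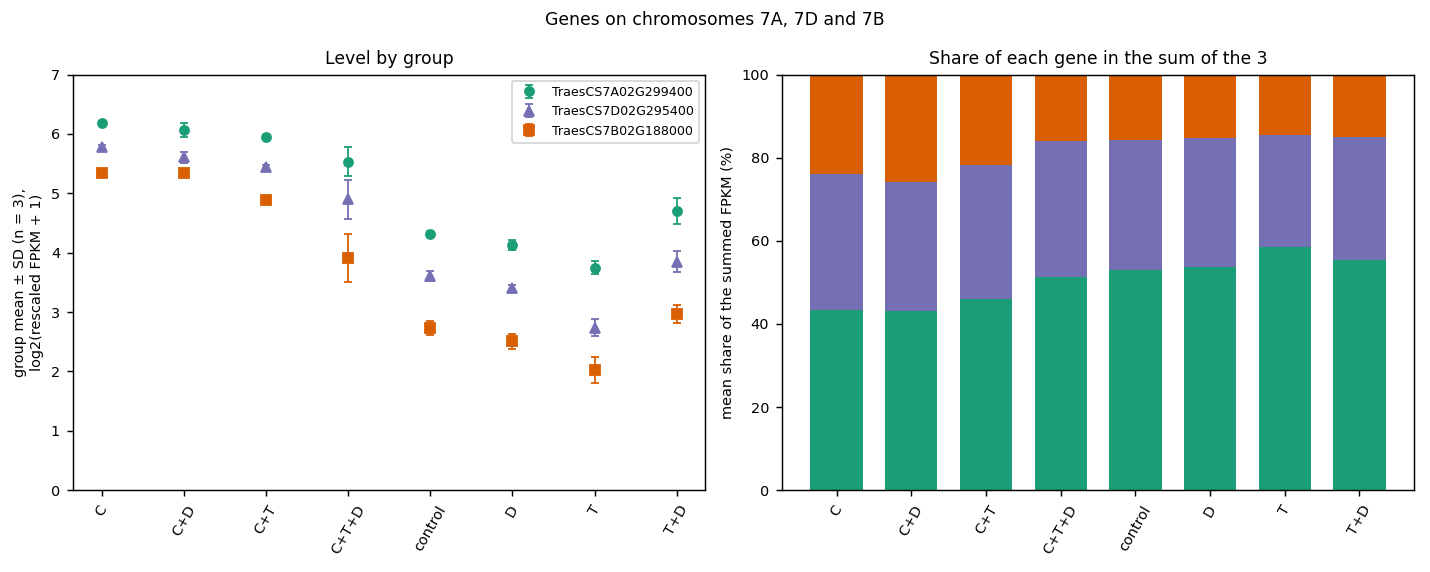
Left, group means ± SD (n = 3) of the genes on chromosomes 7A, 7D and 7B on the log2(rescaled FPKM + 1) scale. Right, the mean share of each gene in the summed FPKM of the 3 (%, n = 3 libraries per group). C is elevated CO2, D drought and T elevated temperature. The 3 genes keep their order in every group, and the 7B share is 21.7% to 25.9% in the C, C+D and C+T groups and 14.6% to 16.0% in the other 5.

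Of the remaining 6 members, TraesCS3A02G255300 and TraesCS1B02G386400 varied most between replicates. TraesCS3A02G255300 stood at 37.9, 52.7 and 43.4 FPKM in CO2 libraries, against 8.97, 7.30 and 3.81 FPKM in controls. CO2+drought libraries had 17.8, 33.9 and 25.2 FPKM, against 3.70, 2.79 and 3.29 FPKM in drought libraries. CO2+temperature libraries had 43.1, 39.1 and 37.7 FPKM, against 5.87, 6.31 and 6.71 FPKM in temperature libraries. In these 3 pairs the groups were clearly apart. With all 3 treatments the values were 7.28, 11.3 and 27.1 FPKM, against 6.63, 9.28 and 8.34 FPKM under temperature+drought, so that these groups overlapped. Without CO2+temperature+drought replicate 3, or without temperature+drought replicate 1, the gene no longer met the rule.

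TraesCS7A02G245800 stood at 39.8, 41.8 and 41.5 FPKM in CO2 libraries, against 11.3, 10.9 and 9.18 FPKM in controls, and at 15.3, 18.2 and 31.5 FPKM with all 3 treatments, against 12.2, 14.3 and 13.1 FPKM under temperature+drought. Both of these pairs of groups were apart, the second by about 1 FPKM. As with TraesCS3A02G255300, the gene no longer met the rule without CO2+temperature+drought replicate 3 or without temperature+drought replicate 1. Its other CO2 libraries ranged from 29.2 to 40.6 FPKM. TraesCS5D02G039100, on chromosome 5D, was the steadiest of the 11 without CO2, with 12 libraries between 12.3 and 17.9 FPKM and group means that spanned 0.24 on the log2 scale. With CO2 it stood between 16.9 FPKM, in CO2+temperature+drought replicate 3, and 44.1 FPKM, in CO2+temperature replicate 1. That single low library overlapped with drought and temperature+drought libraries.

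TraesCS1D02G165000 and TraesCS7D02G499500 were the members with the smallest ranges among CO2 group means, 0.27 and 0.39 on the log2 scale. TraesCS1D02G165000 averaged 26.6 ± 2.27 FPKM under CO2, 28.9 ± 2.82 under CO2+drought, 23.7 ± 1.64 under CO2+temperature and 25.8 ± 8.55 under CO2+temperature+drought, against 12.8 ± 1.85, 15.5 ± 3.23, 15.3 ± 2.76 and 8.71 ± 1.38 FPKM in control, drought, temperature and temperature+drought (SD, n = 3 each). These 4 CO2 means lay within 1 SD of the most variable of them. TraesCS7D02G499500 averaged 12.3 ± 0.577 FPKM under CO2, against 4.51 ± 0.241 in controls (SD, n = 3 each), and its CO2 libraries ranged from 8.56 to 15.5 FPKM, all above its highest other library at 7.80 FPKM. TraesCS1B02G386400 averaged 12.5 ± 2.27 FPKM under CO2, against 3.53 ± 0.505 in controls (SD, n = 3 each). Its temperature libraries were far apart, at 12.6, 9.96 and 2.94 FPKM, and temperature replicate 1 stood above the lowest CO2 libraries.

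The CO2 difference was smallest on the background of temperature and drought together in 8 of the 11 members, and on the background of temperature alone in the other 3, TraesCS1B02G386400, TraesCS7D02G499500 and TraesCS1D02G165000. Its median over the members was 1.03 on the log2 scale with temperature and drought, against 1.88 without another treatment, 1.94 with drought and 1.91 with temperature. Over all genes tested the medians of these differences lay between -0.04 and 0.03. Genes called higher with CO2 made up 16.1% of those tested on the background of temperature and drought, 16.4% without another treatment, 20.2% with drought and 7.38% with temperature, and genes called lower made up 18.0%, 18.5%, 20.5% and 5.98% on the same backgrounds. Nothing is read from these shares for the members, since the same differences chose them. TraesCS1D02G165000 was the exception, with its largest CO2 difference on the background of temperature and drought (1.43, against 0.61 with temperature).

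**Figure D3:**
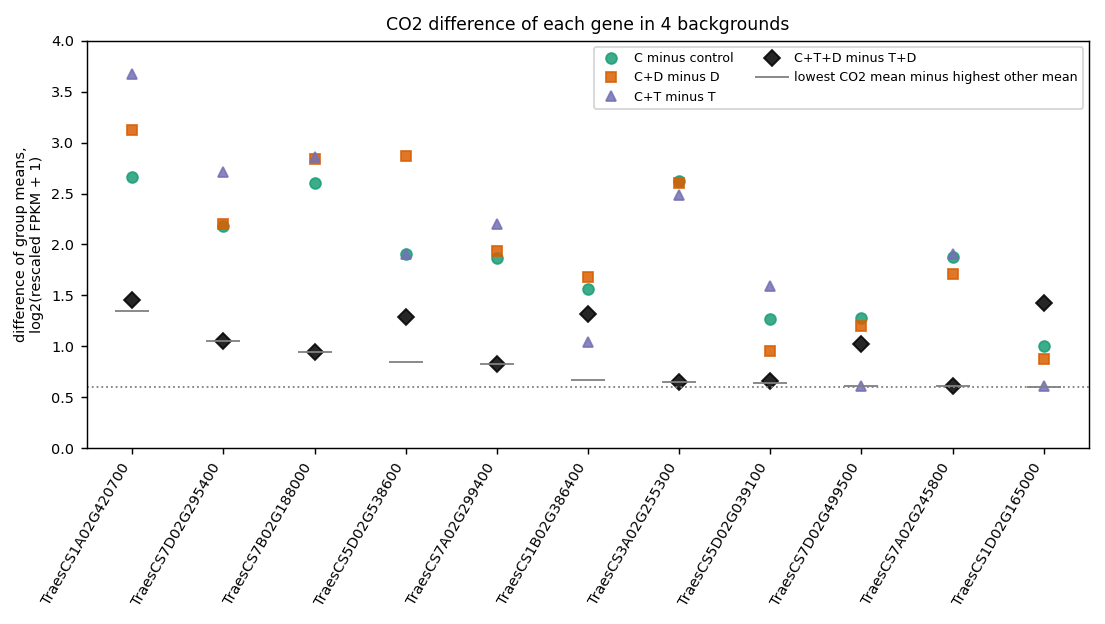
Difference between group means with and without elevated CO2 in 4 backgrounds, on the log2(rescaled FPKM + 1) scale, for each of the 11 genes in order of margin. Grey bars mark the margin used to choose them and the dotted line its threshold of 0.6. The black diamonds, for temperature and drought together, are the lowest of the 4 symbols in 8 of the 11 genes.

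Whether the CO2 difference varied with temperature or with drought was tested by interactions, whose sign the rule does not fix, although the required margin limits their size. The CO2 difference was smallest where temperature and drought came together in 8 members, and neither treatment alone made it smaller by a call in any member. Nearest to a call was TraesCS7D02G499500, with a CO2 difference of 0.61 with temperature, against 1.28 without another treatment. That change was -0.66 (limma, Benjamini-Hochberg adjusted p = 0.051). For TraesCS7D02G295400 the CO2 difference was 1.05 on the log2 scale with temperature and drought, 2.71 with temperature, 2.20 with drought and 2.18 without another treatment. The same backgrounds gave 0.83, 2.20, 1.94 and 1.86 for TraesCS7A02G299400, and 0.94, 2.86, 2.84 and 2.61 for TraesCS7B02G188000. In these 3 genes, only the background with both treatments was below that without either. For TraesCS3A02G255300 the differences were 0.65, 2.49, 2.61 and 2.62 in the same order, and for TraesCS5D02G538600 1.29, 1.90, 2.87 and 1.91. The means of TraesCS5D02G538600 without CO2 were all under 1 FPKM, where the added 1 shrinks such differences. Its ratios of group means were 6.34 with temperature and drought, 6.92 with temperature, 40.3 with drought and 14.6 without another treatment. As a ratio, its CO2 difference was thus also lower with temperature alone.

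The interaction of all 3 treatments, which asks whether the effect of temperature on the CO2 difference was itself altered by drought, was negative in 7 members (63.6%) and positive in 0, where 12.4% and 8.88% of the genes tested had a negative and a positive one called. This interaction, and those split by background below, were added after the data had been seen and were not refitted under the alternative settings. At an unadjusted limma p under 0.05 the counts were 7 and 1. The members called were TraesCS1A02G420700 (-2.68; limma, Benjamini-Hochberg adjusted p = 0.0026), TraesCS7B02G188000 (-2.15), TraesCS3A02G255300 (-1.82), TraesCS7D02G295400 (-1.68), TraesCS5D02G538600 (-1.57), TraesCS7A02G299400 (-1.44) and TraesCS7A02G245800 (-1.12). The weakest was TraesCS3A02G255300, with an adjusted p of 0.047 by limma.

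With temperature, averaged over drought, the CO2 difference was called smaller in 7 of the 11 members (63.6%) and larger in 0, where 21.5% and 24.1% of the genes tested had a negative and a positive interaction called. The count of larger differences was also 0 at an unadjusted limma p under 0.05. The averaged change was -1.04 for TraesCS3A02G255300 (SE 0.32; limma, Benjamini-Hochberg adjusted p = 0.011), -0.82 for TraesCS7B02G188000 (adjusted p = 0.00012 by limma) and -0.79 for TraesCS5D02G538600 (adjusted p = 0.00056 by limma). The other 4 lay between -0.31 and -0.53, and on the deposited values 3 members were called, the 3 just named. Split by background, temperature made the CO2 difference smaller in 7 members and larger in 0 among the groups with drought, where 22.3% and 23.5% of the genes tested were called, with unadjusted limma counts of 7 and 1. These were not quite the same 7. TraesCS1A02G420700 (-1.66) was called with drought but not in the average, and TraesCS7D02G499500 (-0.17 with drought) in the average alone. Among the groups without drought the CO2 difference was called smaller in 0 and larger in 1, TraesCS7D02G295400 (0.53, adjusted p = 0.04 by limma), where 8.06% and 8.39% were called, and the unadjusted counts were 1 and 3.

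With drought, averaged over temperature, the CO2 difference was called smaller in 5 members (45.5%) and larger in 0, where 8.02% and 5.45% of the genes tested had a negative and a positive interaction called. At an unadjusted limma p under 0.05 the counts were 7 and 0, and on the deposited values 7 were called smaller. These 5 were the genes on 7A, 7B and 7D described above, with -0.65, -0.84 and -0.82, and TraesCS7A02G245800 and TraesCS5D02G039100, with -0.73 and -0.62. The largest of their adjusted p-values was 0.021, by limma with Benjamini-Hochberg adjustment. The genes on 7A, 7B and 7D may or may not be copies of 1 gene. If they are, the member counts of this and other contrasts hold the same gene more than once. Among the groups with temperature, drought made the CO2 difference smaller in 7 members and larger in 1, TraesCS1D02G165000 (0.82, adjusted p = 0.026 by limma), where 13.1% and 9.29% of the genes tested were called. Among the groups without temperature it was called smaller in 0 and larger in 1, TraesCS5D02G538600 (0.96, adjusted p = 0.012 by limma), where 4.96% and 5.32% were called, and the unadjusted counts were 0 and 1.

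Within the CO2 plants, adding drought to CO2+temperature lowered most of the members. Of the 11, 8 fell (72.7%) and 0 rose, where 13.4% of the genes tested were called lower and 9.55% higher. At an unadjusted limma p under 0.05, 8 were lower and 1 higher. The median change of the members was -0.73 on the log2 scale, against -0.03 over all genes tested. TraesCS1A02G420700 fell to 8.19 ± 0.693 FPKM under CO2+temperature+drought, against 33.0 ± 5.49 FPKM under CO2+temperature (SD, n = 3 each; log2 change of -1.88 with an SE of 0.29, adjusted p = 0.0001 by limma). TraesCS3A02G255300 fell to 15.2 ± 10.5 FPKM, against 40.0 ± 2.84 FPKM (SD, n = 3 each; log2 change of -1.53 with an SE of 0.32, adjusted p = 0.0015 by limma). For either gene, the groups did not overlap. TraesCS5D02G538600 fell by 1.06, TraesCS7B02G188000 by 0.98, TraesCS7A02G245800 by 0.92, TraesCS5D02G039100 by 0.73, TraesCS7D02G295400 by 0.55 and TraesCS7A02G299400 by 0.42. The last of these calls was lost without CO2+temperature+drought replicate 1 or replicate 2. The 3 members not called were TraesCS1B02G386400 (-0.27), TraesCS1D02G165000 (0.07) and TraesCS7D02G499500 (0.39). The last of these was called higher without CO2+temperature+drought replicate 3.

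The CO2+temperature+drought replicates were unlike one another. Replicate 3 was the highest of the 3 in 8 of the 11 members, and replicate 1 the lowest in 6. The members' root mean square SD in log2 units was 0.418 in this group (n = 3), against 0.347 in CO2+drought, 0.330 in temperature, 0.329 in temperature+drought and 0.121 to 0.204 in the other 4 groups. When limma was fitted to the CO2+temperature+drought and CO2+temperature libraries alone, 5 members were called lower on adding drought to CO2+temperature.

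Adding temperature to CO2+drought, a contrast that shares the CO2+temperature+drought libraries with the one above, lowered 6 members (54.5%) and raised 0, where 22.0% and 20.5% of the genes tested were called lower and higher. The unadjusted limma counts were also 6 and 0. TraesCS7B02G188000 fell to 14.5 ± 4.42 FPKM under CO2+temperature+drought, against 39.7 ± 0.422 FPKM under CO2+drought (SD, n = 3 each; log2 change of -1.43 with an SE of 0.14, adjusted p = 2.0e-07 by limma). TraesCS5D02G538600 fell to 2.30 ± 0.0605 FPKM, against 7.84 ± 1.77 FPKM (SD, n = 3 each; log2 change of -1.40 with an SE of 0.16, adjusted p = 1.3e-06 by limma). All 3 libraries of either gene lay below all 3 CO2+drought libraries. TraesCS3A02G255300 fell by 0.86, TraesCS7D02G295400 by 0.70, TraesCS7A02G245800 by 0.61 and TraesCS7A02G299400 by 0.54. The call of TraesCS3A02G255300 was lost on the deposited values and without CO2+drought replicate 2 or 3 or CO2+temperature+drought replicate 1 or 2. TraesCS1A02G420700 was not called here (-0.25).

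When temperature or drought was added to CO2 alone, fewer of the members were called in the fit over all 24 libraries than on reaching CO2+temperature+drought. For temperature, this comparison depended on the fit. With temperature, 2 rose and 2 fell (18.2% each), where 12.6% and 10.1% of the genes tested were called higher and lower. TraesCS1A02G420700 rose to 33.0 ± 5.49 FPKM under CO2+temperature, against 7.54 ± 0.168 FPKM under CO2 (SD, n = 3 each; log2 change of 1.98 with an SE of 0.29, adjusted p = 9.1e-05 by limma). It had the largest of the rises, and its 2 groups did not overlap. TraesCS5D02G538600 also rose, to 5.99 ± 1.47 FPKM, against 3.71 ± 0.362 FPKM under CO2 (SD, n = 3 each; log2 change 0.55), a call lost without CO2 replicate 1 or CO2+temperature replicate 1, which left 1 rise. TraesCS7B02G188000 fell by 0.45 and TraesCS7D02G295400 by 0.34, and without any one of the 6 libraries neither was called, which left 0 falls. In a limma fit to the CO2+temperature and CO2 libraries alone, 4 members were called higher and 4 lower, and on the deposited values 3 were lower. Fits to the 6 libraries of either contrast that reached CO2+temperature+drought called 5 lower and 0 higher. The order of the counts was thus reversed under such fits. The CO2+temperature and CO2 libraries did not overlap in 7 of the 11 members, as in 50.4% of the genes tested. With drought, only TraesCS5D02G538600 of the 11 was called, higher at 7.84 ± 1.77 FPKM under CO2+drought, against 3.71 ± 0.362 FPKM under CO2 (SD, n = 3 each; log2 change of 0.89 with an SE of 0.16, adjusted p = 0.00068 by limma), where 11.3% of the genes tested were called higher and 9.40% lower. The falls numbered 2 at an unadjusted limma p under 0.05 and 4 on the deposited values. A second gene was called higher without CO2+drought replicate 1, which made 2 rises, and 1 gene was called lower without CO2+drought replicate 2.

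**Figure D4:**
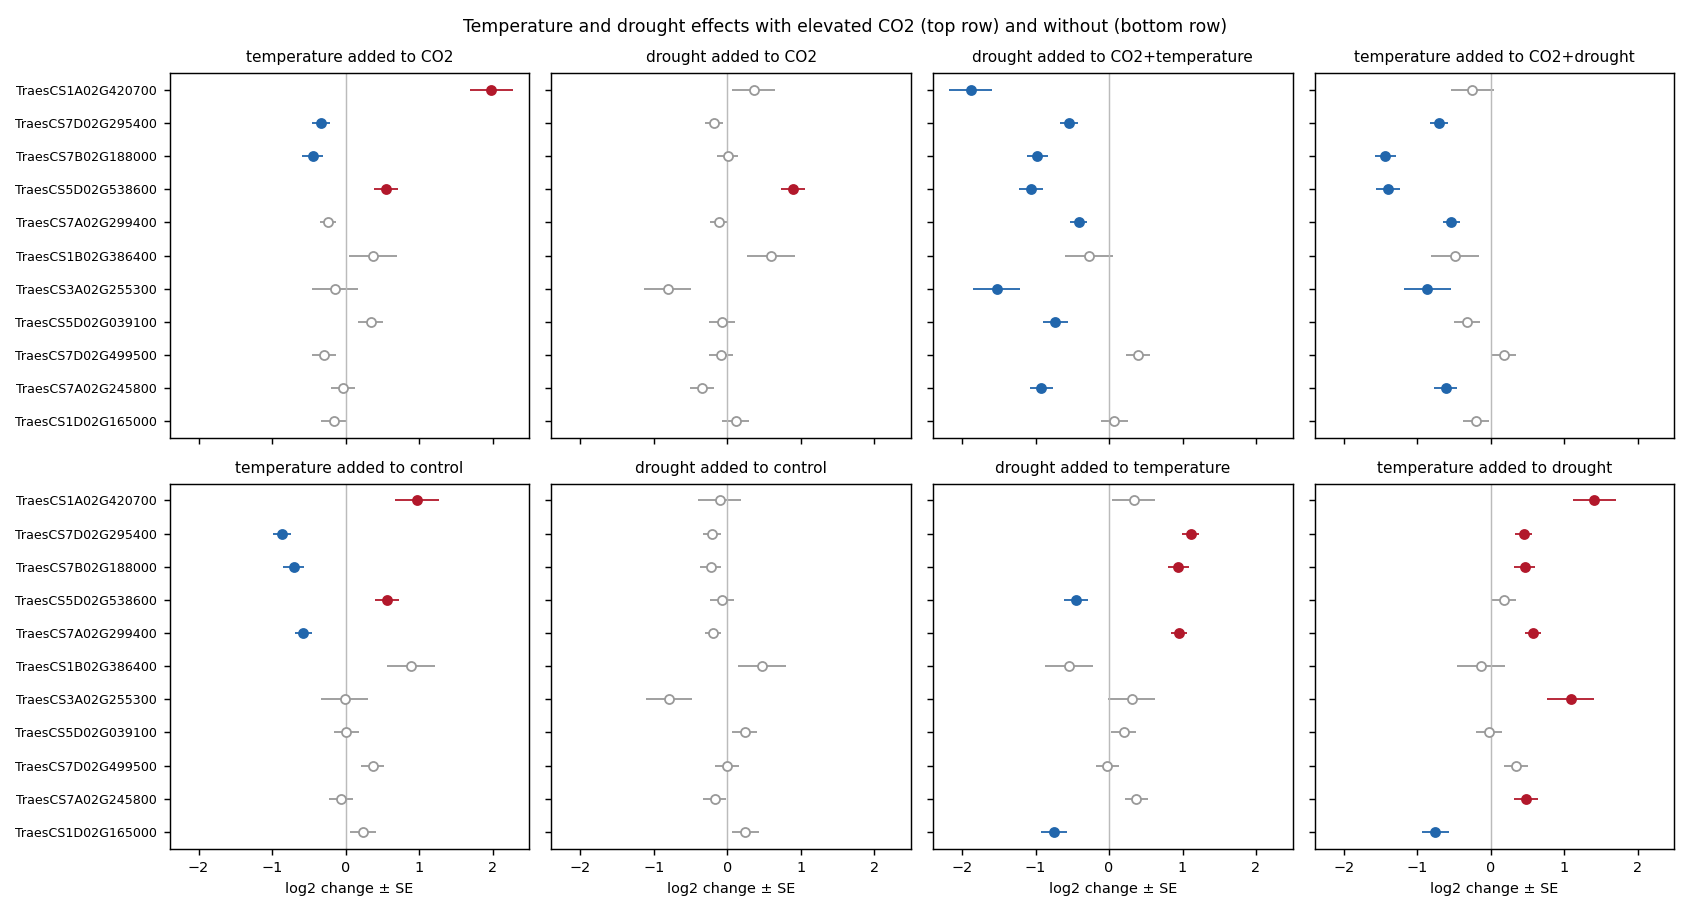
Log2 change ± SE of the 11 genes on adding temperature or drought, from limma over all 24 libraries. The top row holds contrasts between groups with elevated CO2 and the bottom row those between groups without it. Filled red and blue points are called higher and lower (adjusted p under 0.05) and open points are not called. Blue points make up 8 of the 11 genes for drought added to CO2+temperature and 6 for temperature added to CO2+drought.

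Without elevated CO2, drought alone moved none of the members to a call. The limma counts were 0 higher and 0 lower, where 0.884% and 0.910% of the genes tested were called, and 0 and 1 at an unadjusted p under 0.05. The 1 was TraesCS3A02G255300, at 3.26 ± 0.458 FPKM under drought, against 6.69 ± 2.63 FPKM in controls (SD, n = 3 each; log2 difference -0.79, limma adjusted p = 0.25). Temperature alone lowered 3 members (27.3%) and raised 2 (18.2%), where 7.68% and 8.25% of the genes tested were called lower and higher. The 3 that fell were the genes on 7A, 7B and 7D. TraesCS7D02G295400 fell to 5.70 ± 0.682 FPKM under temperature, against 11.2 ± 0.674 FPKM in controls (SD, n = 3 each; log2 change of -0.87 with an SE of 0.12, adjusted p = 5.4e-05 by limma). TraesCS7B02G188000 fell by 0.70 and TraesCS7A02G299400 by 0.58. These falls were kept in each fit that left out 1 library. TraesCS1A02G420700 rose to 1.67 ± 0.349 FPKM, against 0.358 ± 0.151 FPKM (SD, n = 3 each; log2 change of 0.97 with an SE of 0.29, adjusted p = 0.028 by limma), and TraesCS5D02G538600 rose by 0.56. Neither rise was called without control replicate 1 or without temperature replicate 1, and 1 of the 2 was called without control replicate 2 or control replicate 3. TraesCS1A02G420700 was also not called without temperature replicate 3.

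Adding drought to temperature raised the same 3 genes on 7A, 7B and 7D (27.3% of the members) and lowered 2 members (18.2%), where 18.1% and 19.4% of the genes tested were called higher and lower. TraesCS7D02G295400 rose to 13.5 ± 1.71 FPKM under temperature+drought, against 5.70 ± 0.682 FPKM under temperature (SD, n = 3 each; log2 change of 1.11 with an SE of 0.12, adjusted p = 6.6e-07 by limma), TraesCS7A02G299400 rose by 0.96 and TraesCS7B02G188000 by 0.94. The contrast shares its temperature libraries with the one before. TraesCS1D02G165000 fell to 8.71 ± 1.38 FPKM, against 15.3 ± 2.76 FPKM (SD, n = 3 each; log2 change of -0.75 with an SE of 0.18, adjusted p = 0.003 by limma). The fall of TraesCS5D02G538600 (log2 change -0.45) was not called without temperature replicate 1, temperature+drought replicate 1 or temperature+drought replicate 3, each of which left 1 fall.

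Adding temperature to drought raised 6 members (54.5%) and lowered 1 (9.09%), where 21.0% and 22.3% of the genes tested were called higher and lower. TraesCS1A02G420700 rose to 2.53 ± 1.31 FPKM under temperature+drought, against 0.264 ± 0.150 FPKM under drought (SD, n = 3 each; log2 change of 1.41 with an SE of 0.29, adjusted p = 0.00064 by limma). TraesCS3A02G255300 rose by 1.09, TraesCS7A02G299400 by 0.57, TraesCS7A02G245800 by 0.48, TraesCS7B02G188000 by 0.46 and TraesCS7D02G295400 by 0.45. On the deposited values 3 members were called higher, and TraesCS7A02G245800, TraesCS7B02G188000 and TraesCS7D02G295400 were not. TraesCS7A02G245800 and TraesCS7B02G188000 also lost the call without drought replicate 1 or temperature+drought replicate 2. TraesCS1D02G165000 fell by 0.76, and was the lowest of its 8 group means under temperature+drought.

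Across the genome, the 11 members lay on 8 of the 21 chromosomes. By homoeologous group, 5 were on group 7 (45.5% of the members, against 14.1% of the genes tested). These include the 3 genes on 7A, 7B and 7D described above, which may or may not be copies of 1 gene. Groups 1, 5 and 3 held 3, 2 and 1 members, and 13.2%, 16.2% and 15.7% of the genes tested. None were on groups 2, 4 and 6. The A, B and D subgenomes held 4, 2 and 5 members, and 33.7%, 32.4% and 33.9% of the genes tested. No 2 members were neighbours. The 3 pairs on a shared chromosome were at least 522 identifiers apart in the file, against a limit of 5 set for calling genes neighbours.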

How the data were processed

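The authors deposited FPKM values of 105200 genes in 24 libraries. The tools used, per the submitters' processing notes, include Cuffdiff, DESeq2, HISAT2 and Trim Galore 0.4.1, whose roles and order are not stated there. No source used here names the genome build or annotation.

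Each column was divided by its median over the 32436 genes with at least 1 FPKM in all 24 libraries and multiplied by the mean of these medians, 6.95. This assumes that the typical gene does not differ between groups. Testing covered the 45384 genes that reached 1 FPKM in 3 or more libraries, on log2(FPKM + 1) with limma 3.58.1 in R 4.3.3, with 1 coefficient per group, all 24 libraries and a mean-variance trend. The added 1 shrinks the log2 change of genes at low levels. Tests were two-sided, with Benjamini-Hochberg adjustment over all genes tested within each of 10 planned contrasts, and the threshold for a call was an adjusted p of 0.05. The interaction of all 3 treatments, the interactions split by background and the CO2 differences over all genes came from the same fit. They were adjusted in the same way, each within itself. The method was tested on simulated data. Alternative fits used the deposited values, a pseudocount of 0.1, no filter, the replicate number as a block, or all libraries but 1. Contrasts of 2 groups were also fitted to their 6 libraries alone. For the choice of members, alternatives were the deposited values, median-ratio scaling, a pseudocount of 0.1, other margins, group medians and leaving out each library. Median-ratio scaling was not used in any test. The p-values measure only the spread between these libraries, since the labels do not say how separate the replicates were grown.

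Members and contrasts were chosen with earlier results of these data known. The naming rule covered the widest margins, the highest and steadiest levels, the genes at the threshold and the largest change per contrast. With 11 members, all are named.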

Additional observations from a re-analysis of the deposited data

Results flagged for a closer look

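The CO2 difference of most members depended on temperature or drought, by the interaction terms of the fit over all 24 libraries. TraesCS1B02G386400 had no interaction called. TraesCS1D02G165000 had only a positive one, 0.82 for drought among the groups with temperature. The interaction of all 3 treatments, the effect of temperature on the CO2 difference with drought minus that without drought, was -2.68 for TraesCS1A02G420700, -2.15 for TraesCS7B02G188000, -1.82 for TraesCS3A02G255300, -1.68 for TraesCS7D02G295400, -1.57 for TraesCS5D02G538600, -1.44 for TraesCS7A02G299400 and -1.12 for TraesCS7A02G245800. Interactions with 1 treatment, averaged over the other, were called in 8 members, although without drought temperature made no member's CO2 difference smaller by a call, nor did drought without temperature. Nearest to such a call was TraesCS7D02G499500, at -0.66 with temperature and without drought (adjusted p = 0.051 by limma). Values are the CO2 difference with the treatment minus that without it, on the log2(FPKM + 1) scale. With temperature, it was -1.04 for TraesCS3A02G255300, -0.82 for TraesCS7B02G188000, -0.79 for TraesCS5D02G538600, -0.53 for TraesCS7A02G245800, -0.42 for TraesCS7D02G499500, -0.39 for TraesCS7A02G299400 and -0.31 for TraesCS7D02G295400. With drought, it was -0.84 for TraesCS7B02G188000, -0.82 for TraesCS7D02G295400, -0.73 for TraesCS7A02G245800, -0.65 for TraesCS7A02G299400 and -0.62 for TraesCS5D02G039100. The interaction with temperature of TraesCS7D02G295400 was not called under 21 of 28 other fits of the averaged interaction and that of TraesCS7D02G499500 under 15 of 28, while the 5 interactions with drought were called under all 28. The interaction of all 3 treatments was not refitted in this way, so how far its calls depend on single libraries or on scaling was not tested.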

How the results depend on the processing

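Of the 48 calls over members and the 10 planned contrasts, 30 were kept under every alternative fit made for them but those split by background. The other 18 were lost under at least 1 such fit, and 0 of the 48 changed direction. No call was refitted with median-ratio scaling, and the interactions were not fitted to fewer groups among these alternatives. Calls of the interaction of all 3 treatments are not among the 48. With a pseudocount of 0.1, adding temperature to CO2 called 1 member higher and 1 lower, and the rule kept 22 genes, the 11 included. With no filter on low values, 1 was called lower on adding temperature to CO2, 1 higher on adding temperature to control and 1 lower on adding drought to temperature. On values as deposited, 4 were lower on adding drought to CO2, 3 higher on adding temperature to drought, 3 lower for the CO2 by temperature interaction, and the rule kept 17 genes, 10 of the 11 among them. With limma fitted to the 6 libraries of a contrast alone, 4 were higher and 4 lower on adding temperature to CO2, 2 higher and 2 lower on adding drought to CO2, 5 lower on adding drought to CO2+temperature and 1 lower on adding drought to temperature. As alternatives added after seeing the data, the CO2 by temperature interaction called 1 member higher and 0 lower among groups without drought, and the CO2 by drought interaction 1 higher and 0 lower among groups without temperature and 1 higher among those with it. Thresholds of 0.4, 0.8 and 1 for the margin kept 38, 5 and 2 genes, and group medians kept 10, of which 7 were of the 11. A smaller margin keeps more genes by construction, and the cause of the other shifts was not tested.

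Leaving out 1 library at a time, calls on adding temperature to CO2 ranged from 1 to 2 higher and were 0 lower, on adding drought to CO2 from 1 to 2 higher and 0 to 1 lower, on adding drought to CO2+temperature from 0 to 1 higher and 7 to 8 lower, on adding temperature to CO2+drought from 5 to 8 lower, on adding temperature to control from 0 to 2 higher, and on adding drought to temperature from 1 to 3 lower. The rule kept 8 to 14 genes, and 5 of the 11 were kept throughout: TraesCS1A02G420700, TraesCS7D02G295400, TraesCS7B02G188000, TraesCS5D02G538600 and TraesCS7A02G299400. TraesCS1D02G165000 was kept in 18 of 24.

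Same-numbered libraries of different groups did not deviate together (r over genes from -0.28 to 0.44 in 84 pairs of libraries, above 0.1 in 12). In 0 of the 28 pairs of groups were all 3 above 0.1, so the numbers do not pair them. CO2+drought and temperature+drought shared the replicate order in 8 of the 11 members, while their same-numbered libraries had r of -0.07 to -0.04 over all genes tested. With the replicate number as a block, 6 members were called for the CO2 by drought interaction, against 5 without, and each other count was as given. Counts behind FPKM are unknown, so no counting interval was computed, and levels under 1 FPKM are the least certain.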
